A study of Mus musculus with 16 samples.

Results

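The genes described here are 35 members of the p53 and DNA damage response, chosen by name, and all 35 were found among the 16118 genes measured. They comprise p53 itself and its regulators (3 genes), damage kinases and adaptors (5), apoptosis genes (12), growth arrest and feedback genes (9) and DNA repair genes (6). For testing, a gene had to reach 1 CPM in at least 4 libraries of the comparison, which 33 members did in every comparison. Chek1 and Pmaip1 did not.

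RNA was measured in the atria and the ventricles of 8 adult male mice from the same litters, giving 4 groups of 4 libraries, 1 atrial and 1 ventricular library per mouse. All 8 mice were Meis1flox/flox; Meis2flox/flox and were studied 2 weeks after tamoxifen. The 4 idKO mice were also α-MHC-MerCreMer tg/wt, and the 4 control mice were α-MHC-MerCreMer wt/wt. MerCreMer is a Cre recombinase kept inactive by oestrogen receptor parts until tamoxifen binds them, and the α-MHC promoter drives it in cardiomyocytes. MEIS1 and MEIS2 are homeodomain transcription factors. The controls carry no Cre, so an effect of deleting the floxed genes cannot be told apart from what the transgene or Cre activity itself does. The labels give no batch. Within a group the 4 libraries are from 4 mice, so each spread is between animals.

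p53, encoded by Trp53, is a transcription factor that MDM2 and MDM4 hold in check and that DNA breaks release through the kinases ATM, ATR, CHK1 and CHK2. Released p53 raises transcription of genes that halt the cell cycle, repair DNA or start apoptosis, and of Mdm2 itself, which closes a feedback loop. Since p53 is controlled largely through protein stability, its targets are the usual transcript readout. Strong nuclear Cre activity can cut mammalian DNA at sites resembling its own target, so the members also bear on the question of whether a damage response was visible in the idKO hearts.

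The start regions of a few members are shown first because a p53 site of a direct target can lie near its start. In RefSeq (GRCm38.p6), windows reaching from 250 bases before to 50 bases after a start were matched for 27 of the 35 members. They were searched for the p53 decamer consensus half-site, which reads the same on both strands. Of 33 member windows, 10 held at least 1 half-site (30.3%), against 2745 of all 32851 windows (8.36%). Windows are not independent: those of Aen overlap and hold the same half-site, so the matches belong to 9 members. The matched members were Trp53, Mdm2, Bax, Ei24, Aen, Ccng1, Sesn1, Gadd45a and Polk. A pair of half-sites separated by at most 13 bases, the form of a full site, was in 24 windows in all (0.0731%) and in none of the members'. A match describes the letters only, and its absence says nothing of binding. The 250 bases before the start are given 5′ to 3′ on the gene's strand, with the half-site in capitals. Ccng1, Gadd45a and Sesn1 are among the members with the lowest atrial relative to ventricular values. Mdm2 is the feedback gene. Phlda3 is the member with the highest atrial relative to ventricular value and held no match. Trp53 and Polk, also higher in control atria, did hold a half-site and are not shown.
Ccng1 (chr11:40755287-40755536, minus strand, half-site from 185 bases before the start): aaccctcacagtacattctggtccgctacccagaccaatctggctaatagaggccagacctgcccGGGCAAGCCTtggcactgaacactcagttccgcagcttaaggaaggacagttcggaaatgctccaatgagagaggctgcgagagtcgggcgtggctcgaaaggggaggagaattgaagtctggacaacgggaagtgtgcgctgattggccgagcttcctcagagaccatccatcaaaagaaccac
Gadd45a (chr6:67037408-67037657, minus strand, half-site from 40 bases before the start): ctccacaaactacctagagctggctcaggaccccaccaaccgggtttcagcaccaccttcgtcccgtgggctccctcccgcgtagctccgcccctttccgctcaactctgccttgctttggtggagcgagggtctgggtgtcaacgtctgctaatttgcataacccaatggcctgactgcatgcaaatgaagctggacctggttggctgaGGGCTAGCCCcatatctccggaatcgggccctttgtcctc
Sesn1 (chr10:41887189-41887438, plus strand, the window with a match, half-site from 173 bases before the start): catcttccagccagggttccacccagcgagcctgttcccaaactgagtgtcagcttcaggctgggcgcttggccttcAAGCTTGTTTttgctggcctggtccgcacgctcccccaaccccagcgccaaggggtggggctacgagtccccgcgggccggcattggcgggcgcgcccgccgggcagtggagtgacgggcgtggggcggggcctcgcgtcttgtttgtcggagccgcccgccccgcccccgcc
Mdm2 (chr10:117710759-117711008, minus strand, half-site from 186 bases before the start): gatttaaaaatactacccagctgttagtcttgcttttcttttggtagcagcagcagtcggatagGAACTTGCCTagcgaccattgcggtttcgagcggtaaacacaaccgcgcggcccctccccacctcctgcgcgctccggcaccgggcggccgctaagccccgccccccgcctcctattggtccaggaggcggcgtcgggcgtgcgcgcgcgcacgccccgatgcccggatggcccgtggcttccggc
Phlda3 (chr1:135765835-135766084, plus strand, no match): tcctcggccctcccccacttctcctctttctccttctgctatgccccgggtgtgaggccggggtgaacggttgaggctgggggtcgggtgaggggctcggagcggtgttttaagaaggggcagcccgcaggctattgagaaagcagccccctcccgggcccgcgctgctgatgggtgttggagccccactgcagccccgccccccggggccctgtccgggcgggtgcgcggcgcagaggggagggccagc

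Values below are normalised read counts, expressed as CPM over the effective library size that the authors' scaling implies. Reads recovered from them came to 13.1 to 21.8 M per library (M, mega). The ratio of effective to recovered library size was lower in ventricles (mean 0.639 for control, 0.687 for idKO mice) than in atria (mean 0.947 and 0.958), so a chamber difference depends on the scaling, as given with the chambers. Meis2 fell in idKO ventricles to 8.82 from 26.8 in controls. In atria it measured 17.7 in idKO and 20.0 in control mice and was not called lower by limma. Meis1 averaged 23.1 ± 2.29 in idKO and 27.3 ± 0.77 in control ventricles (log2 difference -0.24 ± 0.09, limma adjusted p = 0.236). Its idKO ventricles, at most 25.4, lay below every control, at least 26.8, and genotypes did not overlap in 8.99% of all genes. In atria it averaged 29.7 ± 2.76 in idKO and 28.3 ± 2.86 in control mice. A loss of its transcript therefore did not pass the test in either chamber. Which part of either transcript the floxed alleles remove is not given in the sources used here. Esr1, whose sequence is part of the transgene, was read at 3099 in idKO ventricles and 186 in idKO atria, against 0.967 and 5.02 in controls. The defining atrial muscle markers separated the tissues as labelled, at a summed 34814 to 43685 in control atria and 192 to 236 in control ventricles. In such bulk samples, fewer cells of a type and less RNA per cell cannot be told apart.

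In level the members covered more than 3 orders of magnitude. On the scale of normalised reads per kb of exon, which allows genes to be compared, Ccng1, encoding cyclin G1, led in control ventricles at 392 ± 14.2 (SD, n = 4). It was followed by Perp, a membrane protein of desmosomes, at 93.4 ± 11.8 and Sesn1, a stress-induced brake on mTORC1, at 60.7 ± 5.93. The next genes were Ei24 at 16.1 ± 0.667, Parp1 at 15.2 ± 1.09, Bax at 14.1 ± 1.13 and Mdm2 at 13.2 ± 0.705, and each of these neighbours lay within the summed SDs of the next. Trp53 was read at 3.73 ± 0.306 per kb. At the bottom stood the checkpoint kinase gene Chek1 at 0.133 ± 0.0286 and the BH3-only gene Pmaip1 at 0.116 ± 0.0817. Chek1 rested on 6 to 8 reads and Pmaip1 on 1 to 7 reads per control ventricle.

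**Figure D1:**
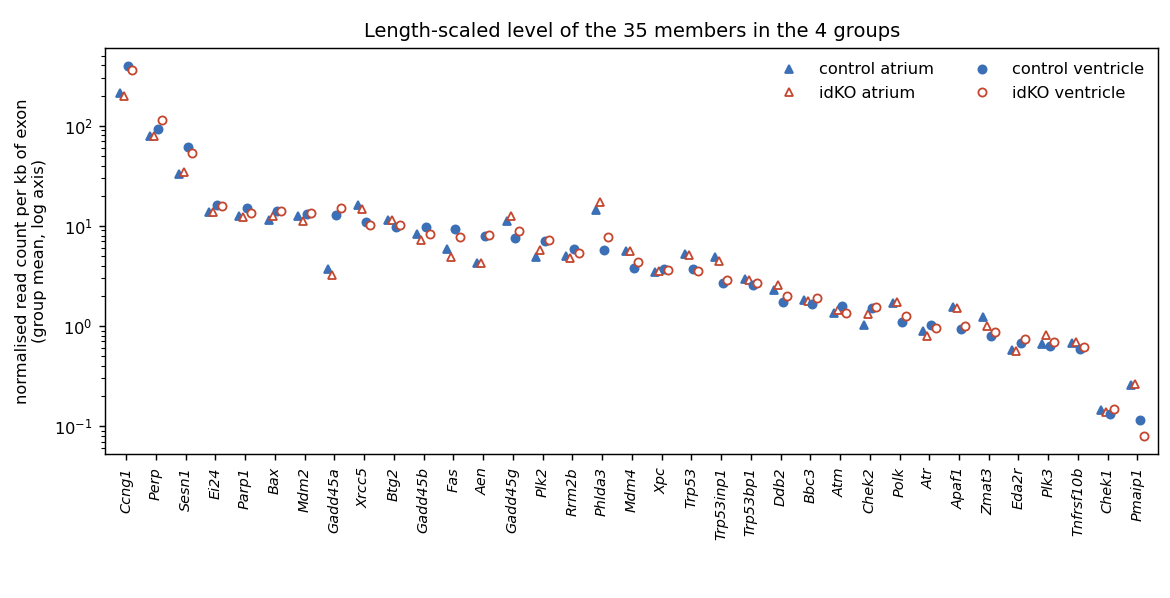
Group mean of each of the 35 members in normalised reads per kb of exon (log axis), ordered by the control ventricle, with triangles for atria, circles for ventricles, filled symbols for control and open ones for idKO mice. Ccng1, Perp and Sesn1 stand above the rest, and Chek1 and Pmaip1 lie lowest.

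In ventricles none of the 33 tested members passed the test between idKO and control mice, where limma called 2.03% of all genes tested. At an unadjusted p under 0.05 there were 6 members (18.2%), against 14.97% of all genes, and the smallest adjusted p was 0.169. The edgeR and DESeq2 tests on recovered reads also called 0 members, with 5 and 6 at an unadjusted p under 0.05. The members' log2 differences, idKO minus control, ran from -0.27 to 0.37 with a median of 0.04, beside -0.01 over all genes. The 95% confidence interval of the difference lay within 1.5-fold for 29 of 33 members and within 2-fold for all 33. The exceptions at 1.5-fold were Atm, Phlda3, Gadd45b and Plk3. Fold values are on the scale of log2(value + 1), which understates the change of low genes. In 2 members, Fas and Gadd45a, the libraries of the 2 genotypes did not overlap (6.06%), as in 8.99% of all genes.

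**Figure D2:**
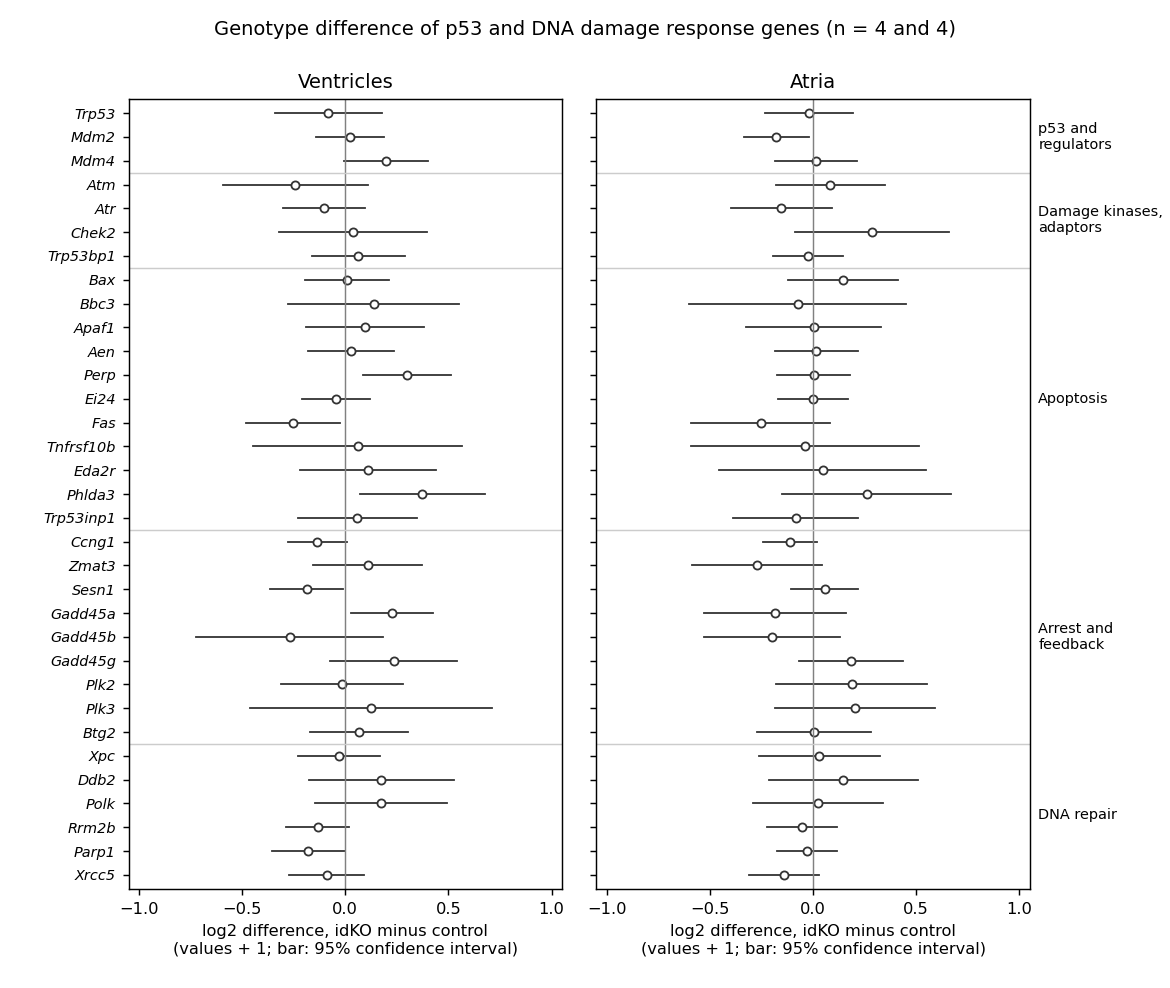
log2 difference (idKO minus control, values + 1) of the 33 tested members in ventricles and atria, with 95% confidence intervals, grouped by role; open symbols did not pass a limma adjusted p of 0.05. All points lie between -0.27 and 0.37.

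Of the regulators, Trp53 (chromosome 11, 69580359 to 69591873) was read in control ventricles at 13.8, 14.4, 15.5 and 16.6 and in idKO ventricles at 11.7, 16.6, 13.8 and 14.9. The idKO libraries spread across the control range and past both of its ends. The log2 difference was -0.08 ± 0.12 (SE), with an interval of 0.789-fold to 1.13-fold. Mdm2 (chromosome 10, 117688875 to 117710758), the ligase that degrades p53 and a p53 target, stood at 70.9, 66.9, 62.2 and 67.4 in controls and at 69.9, 59.7, 71.0 and 71.9 in idKO ventricles. The groups overlapped, and the log2 difference was 0.02 ± 0.08 (interval 0.907-fold to 1.14-fold). Mdm4, the second p53 inhibitor, averaged 55.7 ± 4.93 and 64.1 ± 7.92 (limma adjusted p = 0.358). The damage kinases Atm, Atr and Chek2 and the break-binding adaptor Trp53bp1 had log2 differences from -0.24 to 0.06.

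Among apoptosis genes, Perp (chromosome 10, 18845020 to 18857073) had the smallest p of all members. Its control ventricles read 152, 192, 179 and 207 and its idKO ventricles 253, 216, 191 and 238. Of the idKO values 3 exceeded every control and the lowest fell below a pair of them. The log2 difference was 0.30 ± 0.10 (limma adjusted p = 0.169; 0.0543 with DESeq2). Phlda3 (chromosome 1, 135766119 to 135769136), a p53 target that restrains AKT, read 10.4, 8.13, 9.10 and 8.23 in controls and 12.6, 13.4, 12.8 and 9.10 in idKO ventricles. Again 3 of 4 idKO libraries lay above all controls, and replicate 4 did not. Its log2 difference was 0.37 ± 0.14 (limma adjusted p = 0.225), and 0.49 without idKO replicate 4 (limma adjusted p = 0.0684). Leaving out that library also brought the members with an unadjusted p under 0.05 from 6 to 10, but the share of all genes at that threshold was not taken there.

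Fas (chromosome 19, 34290666 to 34327772), a death receptor, read 16.3, 21.5, 18.5 and 19.9 in control ventricles and 16.2, 16.05, 14.6 and 16.3 in idKO ventricles. Every idKO value was below every control, by a margin of 16.26 against 16.30. The log2 difference was -0.25 ± 0.11 (limma adjusted p = 0.279). The mitochondrial pore gene Bax, which carries out p53-driven apoptosis, averaged 22.2 ± 1.77 and 22.3 ± 1.57. The BH3-only gene Bbc3 (Puma) averaged 3.52 ± 0.67 and 4.01 ± 1.12. None of the 11 tested apoptosis genes passed the test.

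Among growth arrest and feedback genes, Gadd45a (chromosome 6, 67035096 to 67037457), a damage-induced inhibitor of the cell cycle, read 20.6, 24.7, 21.5 and 24.3 in control ventricles. The idKO ventricles read 25.0, 28.8, 26.8 and 26.5, all above the controls. The log2 difference was 0.23 ± 0.09 (limma adjusted p = 0.266). On the opposite strand, 337 of its 1764 exonic bases belong also to E230016M11Rik, which averaged 0.757 to 1.12 per group; whether counting used the strand is not given in the sources used here. Ccng1 averaged 1377 ± 49.9 and 1256 ± 99.9 and Sesn1 242 ± 23.6 and 212 ± 19.8 (limma adjusted p = 0.361 and 0.304). Gadd45b, Gadd45g, Plk2, Plk3, Btg2 and the RNA-binding Zmat3 had log2 differences from -0.27 to 0.23. The DNA repair genes ran from -0.18 (Parp1, the break-sensing ADP-ribosyl transferase) to 0.18 (Ddb2, a damage recognition factor of nucleotide excision repair). Ddb2, read at 3.71 to 8.31 per library, shares 652 of its 2736 exonic bases with Acp2 on the opposite strand. Acp2 averaged 38.3 to 43.1 per group, and its part in the values of Ddb2 was not tested.

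Cell type markers moved with genotype in ventricles beside these values. The 5 ventricular muscle markers summed to 10589.6 to 11238 in controls and 7717 to 9005 in idKO ventricles, and 4 of 5 fell. Of the 8 cardiomyocyte markers, which summed to 87591.5 to 93396 and 78469.8 to 89582, 1 fell. The 5 mesothelial markers summed to 24.1 to 29.8 in controls and 8.52 to 23.6 in idKO ventricles without overlap, and 1 of the 3 tested fell. The 8 macrophage markers summed to 364 to 379.9 and 406 to 498, and 1 of 8 rose. The 8 fibroblast markers summed to 1015 to 1231 and 1086 to 1828, and 0 of 8 changed by limma, 2 of them at an unadjusted p under 0.05. The 5 atrial muscle markers summed to 192 to 236 in controls and 496 to 1664 in idKO ventricles, and 1 of the 4 tested rose, while Bmp10 averaged under 1 in both groups. No other of these markers averaged under 1 in a ventricular group, and their part in the members' values was not tested.

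In atria, limma likewise called 0 of 33 members, where it called 0.0207% of all genes tested. One member, Mdm2, had an unadjusted p under 0.05, against 4.61% of all genes, and the smallest adjusted p was 0.966. The edgeR and DESeq2 tests called 0 members, each with 1 at an unadjusted p under 0.05. The log2 differences ran from -0.27 to 0.29 with a median of 0.00. The interval lay within 1.5-fold for 26 of 33 members and within 2-fold for 33. The 7 exceptions at 1.5-fold were Chek2, Bbc3, Fas, Tnfrsf10b, Phlda3, Zmat3 and Plk3. In 1 member (3.03%), Ccng1, the genotypes did not overlap, as in 2.82% of all genes.

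Trp53 was read in control atria at 24.01, 20.9, 21.8 and 18.3 and in idKO atria at 19.9, 22.4, 21.3 and 20.1. The idKO values sat inside the control range, and the log2 difference was -0.02 ± 0.10 (interval 0.852-fold to 1.14-fold). Mdm2 read 67.5, 61.5, 60.7 and 65.1 in controls and 51.9, 57.6, 53.4 and 62.2 in idKO atria. Of the 4 idKO libraries 3 were below all controls. The log2 difference was -0.18 ± 0.07 (limma adjusted p = 0.966).

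Ccng1 (chromosome 11, 40748552 to 40755311) read 741, 788, 727 and 726 in control atria and 677, 644, 711 and 726 in idKO atria, the groups being parted by 726.2 against 725.9. The log2 difference was -0.11 ± 0.06. Zmat3 (chromosome 3, 32334792 to 32366014) read 17.05, 14.1, 11.1 and 14.1 in controls and 9.48, 13.5, 12.3 and 10.6 in idKO atria. These overlapped, with a log2 difference of -0.27 ± 0.14. Xrcc5 (chromosome 1, 72307421 to 72394952), encoding the Ku80 subunit that holds broken DNA ends, read 36.8, 41.5, 41.5 and 46.2 in controls. Its idKO atria read 36.2, 37.5, 37.2 and 39.1, a narrower range overlapping the low end of the controls, with a log2 difference of -0.14 ± 0.08. For all 3, limma's adjusted p was 0.966. The 5 lymphocyte markers summed to 15.8 to 55.6 in control and 3.37 to 49.4 in idKO atria, and limma called 0 of them, 3 being at an unadjusted p under 0.05. The 8 endothelial markers summed to 1066 to 1424 and 1277 to 1491, and limma called 0 of them, 3 being at an unadjusted p under 0.05 (smallest adjusted p = 0.816). The part of both lists in the members' values was not tested. Fas had a log2 difference of -0.25 ± 0.15 in atria beside -0.25 ± 0.11 in ventricles, and Perp 0.00 ± 0.08 beside 0.30 ± 0.10.

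**Figure D3:**
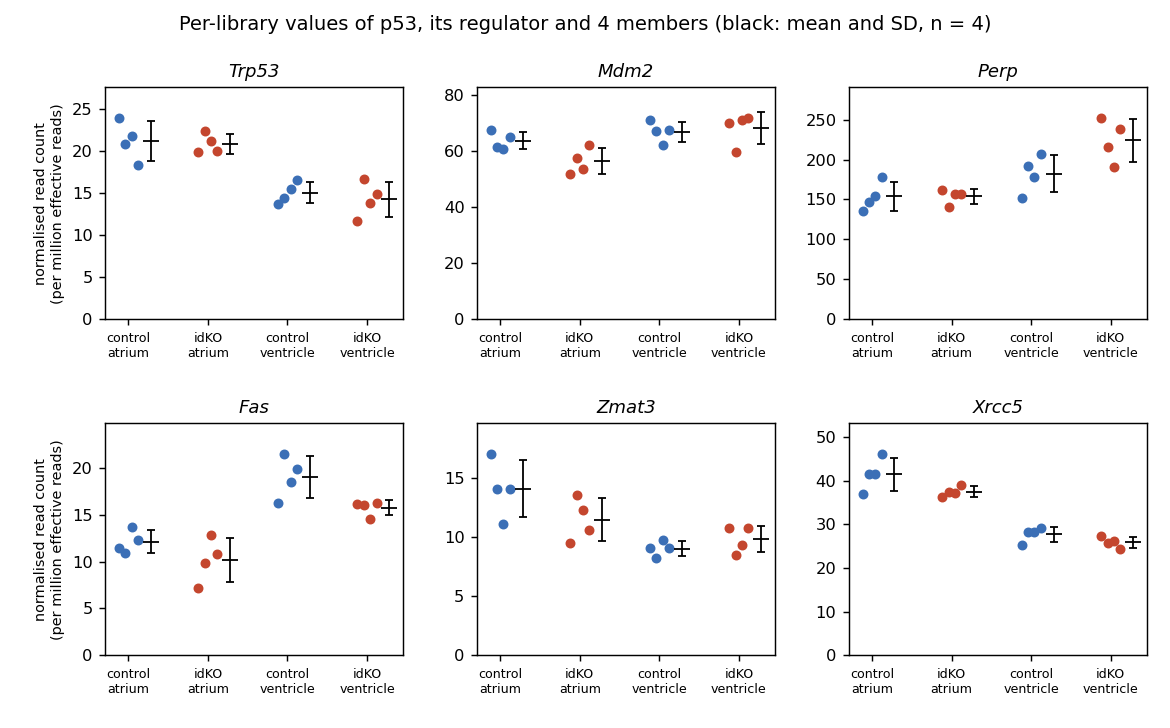
Normalised read counts per library of Trp53, Mdm2, Perp, Fas, Zmat3 and Xrcc5 in the 4 groups (blue, control; red, idKO), with mean and SD in black (n = 4), on axes from 0. The idKO ventricles of Fas lie just below the controls, and the other 5 genes overlap between genotypes in both chambers.

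A test of the difference itself, with the atrial minus the ventricular genotype effect fitted over all 16 libraries, called 0 of 33 members, where limma called 0.296% of all genes. At an unadjusted p under 0.05 there were 2 (6.06%), against 6.54% of all genes. These were Gadd45a (-0.41 ± 0.17 on the log2 scale) and Perp (-0.30 ± 0.14), with limma adjusted p = 0.681 and 0.750. The edgeR and DESeq2 tests called 0, with 4 and 2 at an unadjusted p under 0.05. No member's genotype effect was therefore shown to differ between the chambers.

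The other genes of the pathway gave the same count of calls. Of 111 listed genes in 5 lists, limma tested 99 in ventricles and 106 in atria and called 0 in each. At an unadjusted p under 0.05 stood 13 of the 99 and 2 of the 106, beside 14.97% and 4.61% of all genes. Among 38 other p53 targets, the immediate early gene Ier5 had the smallest p in both chambers, with a log2 difference of 0.32 ± 0.08 in ventricles (limma adjusted p = 0.076) and -0.30 ± 0.14 in atria (0.966). Cdkn1a, encoding the cell cycle inhibitor p21 and the best known p53 target, averaged 15.1 ± 3.57 in control and 14.8 ± 1.89 in idKO ventricles, and 16.4 ± 4.49 and 15.6 ± 1.95 in atria. Of 24 double-strand break repair genes, the end-trimming nuclease gene Dclre1c stood first in ventricles (-0.51 ± 0.16, limma adjusted p = 0.133).

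Of 15 genes of the ATR pathway, the CDK-inhibiting kinase gene Wee1 stood first in both chambers, with log2 differences of 0.22 ± 0.10 in ventricles and 0.30 ± 0.11 in atria. Of 13 nucleotide excision repair genes, Ercc6 stood first in ventricles (-0.30 ± 0.13) and Ercc1 in atria (0.17 ± 0.10). Of 21 base excision and mismatch repair genes, Ung, which removes uracil from DNA, stood first in ventricles (-0.48 ± 0.14, limma adjusted p = 0.108) and Msh3 in atria (-0.25 ± 0.10). The adjusted p of Wee1 and Ercc6 in ventricles was 0.294 and 0.306, and that of Wee1, Ercc1 and Msh3 in atria was 0.966 by limma.

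The chambers themselves were set apart by many members. In control mice, atrium minus ventricle, 21 of 33 tested members passed (63.6%), beside 56.9% of all genes: 9 were higher and 12 lower in atria. The members' median log2 difference was -0.10 and that of all genes 0.02. Libraries did not overlap in 15 members (45.5%), beside 50.7% of all genes. In idKO mice 17 of 33 passed (51.5%), beside 53.8% of all genes, 8 higher and 9 lower, and 15 members did not overlap, beside 47.2% of all genes. Both shares lay near those of all genes. The same call was made in both genotypes for 15 members.

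The split depends on the scaling. When each library was divided by all its recovered reads, an alternative chosen after seeing the data, the median of all genes moved to 0.51 in control and 0.44 in idKO mice, and that of the members to 0.39 and 0.36. Called members then numbered 21 higher and 4 lower in control mice, and 20 higher and 3 lower in idKO mice. Counts of all genes by direction under that scaling are not given here, so this split is not read as a trait of the members. The 4 lower under both scalings in control mice were Gadd45a, Ccng1, Aen and Sesn1. Among members called lower, the sign flipped under that scaling for Chek2, Bax, Perp, Ei24, Plk2, Rrm2b and Parp1 in control mice and for Mdm2, Atr and Rrm2b in idKO mice. The call was lost for Fas in control mice (-0.08) and for Fas, Perp and Sesn1 in idKO mice (-0.16, -0.06 and -0.15).

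**Figure D4:**
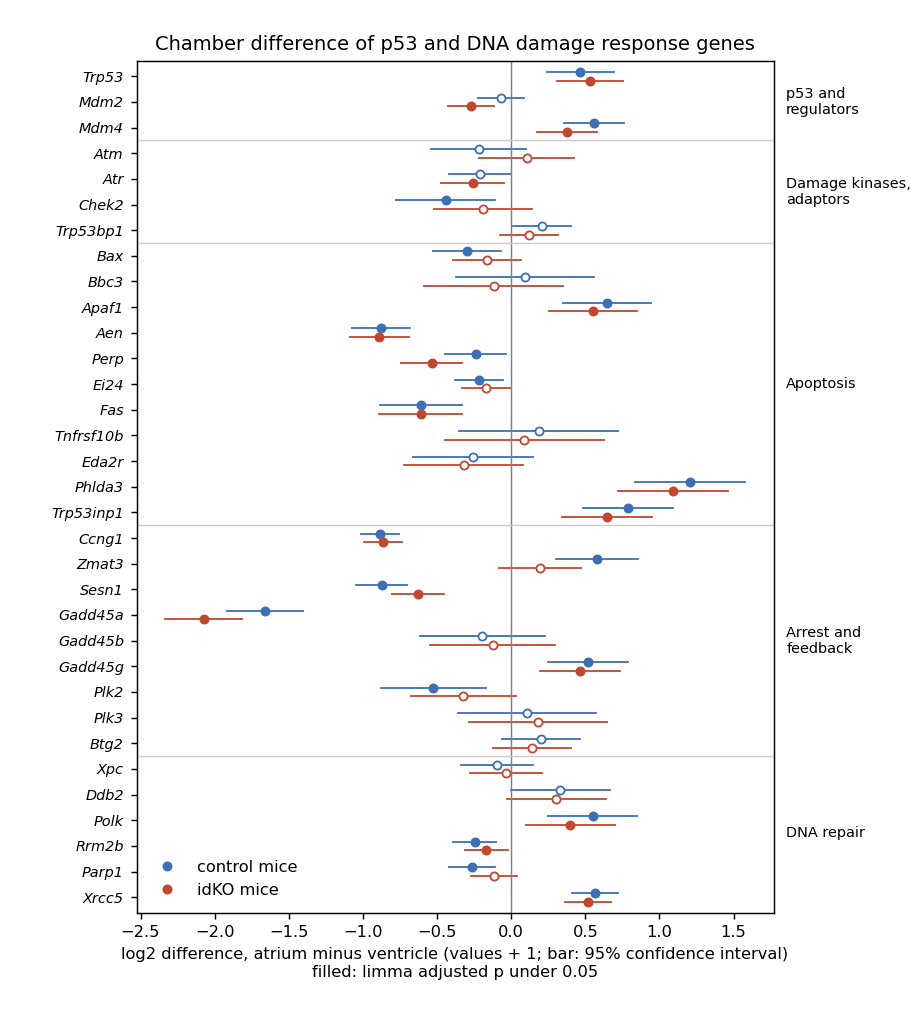
log2 difference, atrium minus ventricle (values + 1), of the 33 tested members in control (blue) and idKO mice (red), with 95% confidence intervals and filled symbols for a limma adjusted p under 0.05. Gadd45a lies farthest to the left, at -1.66 and -2.08, and Phlda3 farthest to the right, at 1.20 and 1.09.

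Of the 9 growth arrest and feedback genes, 4 were lower and 2 higher in control atria. Gadd45a had the most negative difference of all members. It read 5.68, 6.003, 6.67 and 7.76 in control atria, each below every control ventricle given above, with a log2 difference of -1.66 ± 0.12 (limma adjusted p = 1.1e-09). The partner transcript on its opposite strand averaged 1.12 ± 0.373 in control atria and 0.80 ± 0.248 in control ventricles. Ccng1 read 1405, 1432, 1345 and 1325 in control ventricles, well clear of its atrial values, with a log2 difference of -0.88 ± 0.06 (limma adjusted p = 4.3e-10). Sesn1 (chromosome 10, 41809935 to 41908424) averaged 131 ± 9.96 and 242 ± 23.6, a log2 difference of -0.87 ± 0.08. In the same group Zmat3 and Gadd45g were higher in control atria, by 0.58 ± 0.13 and 0.52 ± 0.13, and Plk2, a polo-like kinase gene, was lower (-0.52 ± 0.17). In idKO mice the log2 differences of Gadd45a, Ccng1 and Sesn1 were -2.08, -0.86 and -0.63, and Zmat3 (0.20 ± 0.13) and Plk2 (-0.32 ± 0.17) did not pass. With the mouse as a replicate block, Plk2 passed in idKO mice (limma adjusted p = 0.00566), and Btg2, an inhibitor of proliferation, passed in control mice (0.20, adjusted p = 0.0232 by limma).

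Apoptosis genes went both ways. Phlda3 read 24.4, 16.2, 28.5 and 20.3 in control atria, each above every control ventricle, with a log2 difference of 1.20 ± 0.18 (limma adjusted p = 1e-05). Trp53inp1 (chromosome 4, 11156431 to 11174379), a p53-induced gene of stress and autophagy, read 28.3, 25.8, 43.9 and 28.3 in control atria and 17.03, 19.1, 16.6 and 17.2 in control ventricles. Those groups did not overlap, and the log2 difference was 0.79 ± 0.15. Apaf1 (chromosome 10, 90989311 to 91082770), the core of the apoptosome, read 17.7, 14.2, 13.7 and 9.82 in control atria and 9.93, 8.05, 7.49 and 8.02 in control ventricles. These overlapped by 1 atrium, with a log2 difference of 0.64 ± 0.14 (limma adjusted p = 7.3e-04).

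Aen (chromosome 7, 78895854 to 78911209), an exonuclease gene induced in apoptosis, went the other way. It read 24.4, 24.1, 23.8 and 25.7 in control atria and 49.2, 50.5, 38.3 and 46.2 in control ventricles, well apart, a log2 difference of -0.88 ± 0.09 (limma adjusted p = 1.9e-07). Fas was lower in atria by a log2 difference of -0.61 in each genotype. Bax (-0.30 ± 0.11), Perp (-0.24 ± 0.10) and Ei24 (-0.22 ± 0.08), an endoplasmic reticulum protein gene, passed in control mice, and Perp also in idKO mice (-0.54 ± 0.10). Pmaip1, below the level for testing, read 0.508 to 0.966 in control atria and 0.106 to 0.562 in control ventricles.

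**Figure D5:**
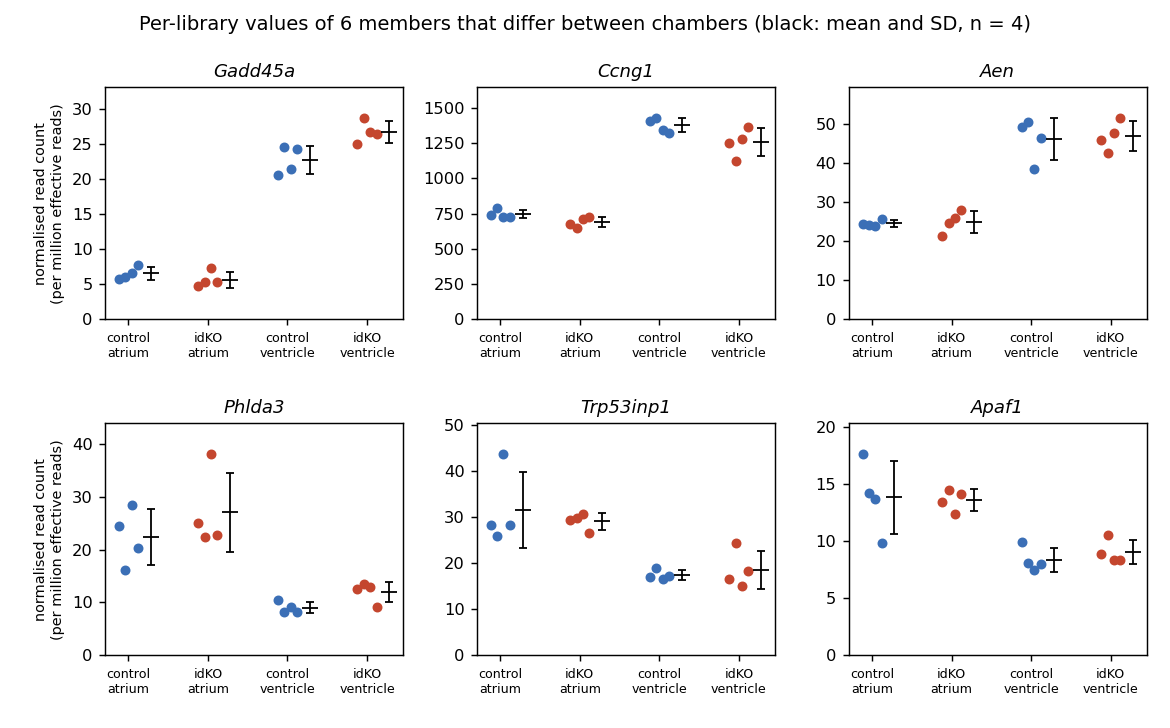
Normalised read counts per library of Gadd45a, Ccng1, Aen, Phlda3, Trp53inp1 and Apaf1 in the 4 groups (blue, control; red, idKO), with mean and SD in black (n = 4), on axes from 0. The first 3 genes are lower and the other 3 higher in control atria than in control ventricles, with 1 overlapping atrium in Apaf1.

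Of the regulators, Trp53 and Mdm4 were higher in control atria, by log2 differences of 0.47 ± 0.11 and 0.56 ± 0.10, and in idKO atria, by 0.53 and 0.38. Mdm2 did not pass in control mice (-0.07 ± 0.07) and was lower in idKO atria (-0.27 ± 0.07, limma adjusted p = 0.00409), although the test of the genotype effect between chambers gave it an adjusted p of 0.788 by limma. Chek2, a damage checkpoint kinase gene, was lower in control atria (-0.44 ± 0.16) and Atr in idKO atria (-0.26 ± 0.10). The replicate block added Trp53bp1 in control mice (0.21, limma adjusted p = 0.0455) and Ei24 in idKO mice (-0.17, adjusted p = 0.0158 by limma). Trp53bp1 shares 2130 of its 14164 exonic bases with Tubgcp4 on the opposite strand. Tubgcp4 averaged 21.2 ± 1.48 in control atria and 20.3 ± 1.93 in control ventricles, and its part in the values of Trp53bp1 was not tested. Among repair genes Xrcc5 and Polk, a DNA polymerase gene of damage bypass, were higher in control atria (0.56 ± 0.07 and 0.55 ± 0.14). Rrm2b, which supplies deoxynucleotides, and Parp1 were lower (-0.25 ± 0.07 and -0.27 ± 0.07), while Xpc and Ddb2 did not pass.

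Some of these calls were lost when 1 mouse was left out, which also leaves the test fewer mice. In control mice Chek2 was lost without control replicate 2 or 4 (log2 difference -0.35 and -0.44), Bax without replicate 1 or 4 (-0.24 and -0.27) and Perp without replicate 2 or 3 (-0.19 and -0.25). Ei24 was lost without replicate 3 or 4 (-0.23 and -0.18) and Plk2 without replicate 1 or 2 (-0.48 and -0.48). In idKO mice Atr was lost without idKO replicate 2 or 3 (-0.23 and -0.19), and Polk and Rrm2b each without replicate 1, 3 or 4. The lost values of Polk ran from 0.36 to 0.41 and those of Rrm2b from -0.18 to -0.13. The control call of Perp was also lost with edgeR, with DESeq2, without the filter on low values and without the trended prior (limma adjusted p = 0.051 without the filter). With edgeR the calls of Bax and Ei24 in control mice and of Atr and Rrm2b in idKO mice were lost as well (edgeR adjusted p = 0.0612, 0.0581, 0.0615 and 0.0798). That of Rrm2b in idKO mice was also lost with DESeq2 and without the trended prior (adjusted p = 0.0771 and 0.0631). The other called members kept their call whenever 1 mouse was left out.

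Markers of other cell types differed between chambers beside these values. In control mice all 5 adipocyte markers were higher in atria, summing to 37.2 to 259 against 0.813 to 1.76 in ventricles, where each of the 5 averaged under 1. All 5 mesothelial markers (269.7 to 342 against 24.1 to 29.8), all 5 Schwann cell markers (44.4 to 59.2 against 10.4 to 13.9) and all 8 fibroblast markers (1481 to 2389.7 against 1015 to 1231) were also higher. Of 5 lymphocyte markers 4 were higher (15.8 to 55.6 against 3.11 to 4.49), with 4 of the 5 averaging under 1 in control ventricles. All 5 erythroid markers were lower in atria (76.4 to 197 against 359 to 449), as were 6 of 8 cardiomyocyte markers (53059 to 62429 against 87591.5 to 93396). Their part in the members' chamber differences was not tested.

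Over the 5 pathway lists, 19 of 106 tested genes were higher and 28 lower in control atria (44.3%), and 16 and 21 in idKO atria (34.9%), beside the 56.9% and 53.8% of all genes. The other p53 targets divided evenly, with 10 higher and 10 lower of 36 in control mice. Base excision and mismatch repair genes had 2 higher and 7 lower of 21, and genes of the ATR pathway 2 higher and 5 lower of 14. Cdkn1a did not pass in either genotype (0.11 ± 0.18 and 0.08 ± 0.18 on the log2 scale). Ung averaged 3.88 ± 0.907 in control atria and 21.9 ± 2.89 in control ventricles.

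By the presence of a half-site, tested members with a matched window divided as follows in control mice. A half-site was held by 2 of 7 higher in atria, 6 of 10 lower and 1 of 9 not called. In idKO mice these counts were 2 of 7, 5 of 7 and 2 of 12. The counts are small and were not made over all genes by call, so a link between half-sites and chamber was not tested. The lower members with a half-site in control mice were Bax, Aen, Ei24, Ccng1, Sesn1 and Gadd45a, of which Bax and Ei24 flip sign when libraries are scaled to all recovered reads. Those in idKO mice were Mdm2, Aen, Ccng1, Sesn1 and Gadd45a, of which Mdm2 flips sign and Sesn1 loses its call under that scaling.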

How the data were processed

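RNA was sequenced from atria and ventricles of 8 mice. Per the submitters' processing notes, the authors used cutadapt, RSEM 1.3.1 and GRCm38; the sources used here do not give the scaling tool. The deposited values are a normalised signal. After taking out a constant of 0.5 and the effective library size, 100% came out as whole reads within a tolerance of 0.01. RSEM divides reads among similar genes, so these reads may be rounded.

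Genes reaching 1 CPM in at least 4 libraries entered two-sided limma 3.58.1 fits (R 4.3.3) of log2(value + 1) with a prior trended on level. P-values were adjusted over all genes tested by Benjamini-Hochberg and called under 0.05. Genotype fits used the 8 libraries of a chamber; chamber and interaction fits used all 16. On recovered reads, edgeR 4.0.16 with TMM called 260 genes in ventricles and 3 in atria, and DESeq2 1.42.0 called 537 and 12. For edgeR, DESeq2 and the fits without a library, counts at an unadjusted p under 0.05 were made for members only. The fits were run on simulated data as a check of the code. The share of changes recovered is not given here, so this says nothing of which differences they could detect.

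The members and lists were chosen with earlier results of these data known. Per-library values were given for Trp53, Mdm2, the 4 members with the smallest p in each genotype comparison, members whose genotypes did not overlap, and the 3 largest chamber differences in each direction. Positions are from GENCODE M21 on GRCm38. Both libraries of a mouse share its number in the labels; deviations from the group means correlated at 0.188 to 0.325 within a mouse over 14871 genes, each highest with itself, so the block alternatives are paired. The comparison of idKO chambers and the scaling to all recovered reads were added after seeing the data. Alternatives also covered the pseudocount (0.5 and 0.1), the filter (none, or 5 CPM), median rescaling, the prior and each library or mouse left out. One gene that the naming rule selects among the double-strand break repair genes in atria is not reported here.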

Additional observations from a re-analysis of the deposited data

Results flagged for a closer look

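Each of the 35 members was checked in each of the 4 groups, 140 checks in all, for a library far from the other 3. A library was listed where its gap to the nearest other, divided by the range of the group, was above Dixon's 95% critical value for 4 samples. That was so in 12 groups, where chance gives about 1 in 20 groups (7). Values are normalised read counts.

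In idKO ventricles, Mdm2 was low at 59.7 in replicate 2 (others 69.9 to 71.9), Bax at 19.9 in replicate 3 (others 22.8 to 23.3), Ei24 at 65.6 in replicate 1 (others 79.2 to 80.4) and Fas at 14.6 in replicate 3 (others 16.05 to 16.3). In idKO atria, Chek1 was high at 0.999 in replicate 4 (others 0.5003 to 0.573), Phlda3 at 38.2 in replicate 3 (others 22.3 to 25.0) and Plk2 at 36.5 in replicate 2 (others 21.4 to 22.9). There Btg2 was low at 26.8 in replicate 4 (others 32.3 to 32.7) and Polk at 8.27 in replicate 3 (others 9.85 to 10.1). In control atria, Mdm4 was high at 98.9 in replicate 1 (others 76.5 to 78.9) and Trp53inp1 at 43.9 in replicate 3 (others 25.8 to 28.3). In control ventricles, Gadd45g was low at 6.49 in replicate 1 (others 9.50 to 9.71).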

How the results depend on the processing

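The count of 0 called members held in ventricles, in atria and for the interaction under each alternative run, the replicate block for the interaction included. In control chambers 18 to 25 members were called over the alternatives, and in idKO chambers 14 to 23. For all genes, the share called is given for the main fits only (56.9% and 53.8%). These ranges and the block counts below are therefore of the members alone, not set against all genes. With the mouse as a replicate block, 23 (fixed effect) and 22 (random effect) members were called in control chambers and 19 and 18 in idKO chambers; beyond the calls gained that stand with the chambers, the block changed no call of a member.

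Scaling to all recovered reads turned the sign of Trp53 in ventricles between genotypes (0.0139). In control chambers it turned Chek2 (0.0036), Bax (0.24), Perp (0.32), Ei24 (0.34), Plk2 (0.0211), Rrm2b (0.31) and Parp1 (0.29), and in idKO chambers Mdm2 (0.20), Atr (0.20) and Rrm2b (0.30). By construction this scaling leaves out the authors' effective library sizes. Without 1 library at a time, the genotype difference of Trp53 ran from -0.1563 to 0.0035 in ventricles, turning without idKO replicate 1, and from -0.0846 to 0.0399 in atria, turning without control replicate 1 or idKO replicate 1 or 4. That of Mdm2 in ventricles ran from -0.0102 to 0.0851, turning without control replicate 3 or idKO replicate 4. Over the 17 alternatives of each genotype comparison (scaling to all recovered reads apart), 13 of 33 members changed sign in ventricles and 16 of 33 in atria, so the sign of a member that did not pass is not firm. The causes were not tested.

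Values near 1 read step coarsely, so no difference of Chek1 or Pmaip1 between groups was tested. The Chek1 library flagged in idKO atria belongs to a group with only 6 to 18 reads per library. With 4 mice per group and a single time after tamoxifen, the intervals reach 1.5-fold for 4 of 33 tested members in ventricles and 7 in atria. They are on the scale of log2(value + 1), which understates the change of low genes. A low gene outside that count may therefore still differ by more than 1.5-fold in its value.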

Other observations

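Fas lies on chromosome 19, where Lipo2 (33719670 to 33751359) and Prkg1 (30564489 to 31765033), a pair chosen after their values were seen, were higher in idKO mice. Measured to the start of Fas, they lie 0.539 and 2.53 Mb away. Their log2 differences were 2.35 and 0.77 in ventricles (limma adjusted p = 2e-05 and 0.0249) and 1.91 and 1.28 in atria (adjusted p = 0.00501 and 2.4e-04 by limma), beside -0.25 for Fas in each chamber. A link to Fas was not tested.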
